A study of Mus musculus with 4 samples.

Results

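The interleukin-1 axis was followed in single mononuclear myeloid cells of the arthritic mouse joint through 6 genes. They are the agonist genes Il1a and Il1b, the related cytokine gene Il18, the receptor antagonist gene Il1rn, the decoy receptor gene Il1r2 and the inflammasome sensor gene Nlrp3. They were taken as a pathway, with no threshold on their values, and all 6 were listed in each of the 4 count tables, which together list 13036 genes. Their transcripts were counted in 14314 retained barcodes, each standing for about 1 cell, with at least 500 genes and under 10% mitochondrial transcripts.

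Interleukin-1 beta is made by activated myeloid cells as an inactive precursor that caspase-1 cuts once an inflammasome such as that of NLRP3 has assembled, and interleukin-18 is cut in the same way. Interleukin-1 alpha and beta signal through one receptor, which the antagonist encoded by Il1rn occupies without signalling, while the decoy receptor encoded by Il1r2 binds the agonist and passes on no signal. In mice, arthritis caused by K/BxN serum is known to need interleukin-1, and mice that lack Il1rn can develop arthritis on their own. Transcript counts do not show how much cytokine is processed or released.

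The cells were sorted as CD45+CD11b+Ly6G- from hind paw synovium, a gate meant to leave out neutrophils. All mice were of the Cx3cr1creER:tdTomato strain and were given tamoxifen 4 weeks before serum, which marks cells in which the Cx3cr1 promoter is active at that time and their descendants. Arthritogenic K/BxN serum was injected, and cells were taken at steady state (day 0) and at days 1, 2 and 5. Each day gave 1 library from an unstated number of mice. Effects of day and of library cannot be told apart, and no difference was tested. Sex and age of the mice are not given in the sources used here.

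The barcodes were sorted into 5 overlapping groups by at least 1 transcript molecule of a marker. The markers were Sparc, a gene of lining macrophages, Cd163, a scavenger receptor gene of interstitial macrophages, H2-Aa, which encodes an MHC class II chain, Plac8, a gene of blood monocytes, and Spp1, the osteopontin gene, known from tissue-repair macrophages and osteoclasts. Levels are in CPM, the unique molecular identifiers (UMIs) of a gene for each 1000000 UMIs of the same barcodes. Values in brackets after a ratio or level are 95% intervals for counting error alone, without the spread between mice or libraries.

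The promoters of the agonist and antagonist genes are shown because their transcripts are set against each other throughout. Il1b lies on mouse chromosome 2 at chr2:129364570-129371139 on the minus strand of GRCm38. Il1rn lies on the same chromosome at chr2:24336853-24351494 on the plus strand. RefSeq start sites on GRCm38.p6 give 1 promoter window of 300 bases for Il1b and 3 for Il1rn, of which the first and the last are printed 5′ to 3′, with motif matches in capitals.
Il1b, chr2:129371090-129371389, minus strand: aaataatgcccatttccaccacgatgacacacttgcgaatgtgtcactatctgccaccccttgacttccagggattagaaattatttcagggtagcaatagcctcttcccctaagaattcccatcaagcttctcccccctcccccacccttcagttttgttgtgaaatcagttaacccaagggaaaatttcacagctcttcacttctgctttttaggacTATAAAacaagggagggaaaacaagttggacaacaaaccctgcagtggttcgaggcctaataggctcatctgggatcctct
Il1rn, upstream start, chr2:24336610-24336909, plus strand: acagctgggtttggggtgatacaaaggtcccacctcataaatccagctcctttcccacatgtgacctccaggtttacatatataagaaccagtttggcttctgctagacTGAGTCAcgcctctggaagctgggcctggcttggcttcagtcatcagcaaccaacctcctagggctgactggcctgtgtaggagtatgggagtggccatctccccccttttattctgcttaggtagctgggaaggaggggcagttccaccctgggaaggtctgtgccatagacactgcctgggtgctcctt
Il1rn, downstream start, chr2:24345121-24345420, plus strand: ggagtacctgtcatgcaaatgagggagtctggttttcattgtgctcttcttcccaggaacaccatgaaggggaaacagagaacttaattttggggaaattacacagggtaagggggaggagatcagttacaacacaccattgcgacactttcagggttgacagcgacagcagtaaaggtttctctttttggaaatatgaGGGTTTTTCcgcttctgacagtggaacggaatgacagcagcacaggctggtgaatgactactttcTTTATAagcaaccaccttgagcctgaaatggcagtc

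The capitals in the Il1b window mark a TATAAA box that begins 31 bases before the start site, a letter string found on either strand in 13.6% of 32851 mouse promoter windows of this length. The capitals in the upstream Il1rn window mark an AP-1 string, TGANTCA, which begins 141 bases before the start and which 7.81% of windows hold. The capitals in the downstream Il1rn window mark a match to GGGNNTTTC, the first letters of an NF-kB site, 51 bases before the start, which 4.36% of windows hold, and a reversed TATAAA string after the start. The Il1b window held no match to the AP-1 or NF-kB string, which says only that these letters are not in this window. Strings for PU.1 (GAGGAAGT, in 3.20% of windows), C/EBP (TTGCNNAA, 10.8%) and GAS (TTCNNNGAA, 8.30%) were also searched on both strands, and of these the 6 genes held a GAS string alone, 111 bases before the Il1r2 start. Il1a held an AP-1 string 12 bases before its start, as well as TATAAA, and the 2 Nlrp3 windows held none of the 6 strings. No match overlapped another. Matches are letter strings and not shown sites of binding, and 3′ UMIs do not tell which Il1rn start was used.

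Il1b had the most UMIs of the 6 genes in every library and was far higher at day 5 than before. Its level was 94.997 CPM at day 0 (413 UMIs), 54.0 CPM at day 1 (993 UMIs), 90.5 CPM at day 2 (1101 UMIs) and 1122 CPM at day 5 (16725 UMIs). Day 5 thus stood far above the rest, and day 1 lay below days 0 and 2. Il1b at day 5 was 11.8-fold its day 0 level (10.7 to 13.1) and 12.4-fold its day 2 level (11.7 to 13.2). It was found in 7.75%, 3.90%, 8.45% and 38.5% of barcodes at days 0, 1, 2 and 5, and in 3.88%, 1.27%, 3.23% and 19.6% when each barcode was thinned to 500 UMIs.

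Il1a, the other agonist gene, stayed near the limit of detection. Its level was 1.84 CPM at day 0 (8 UMIs), 1.03 CPM at day 1 (19 UMIs), 2.71 CPM at day 2 (33 UMIs) and 3.62 CPM at day 5 (54 UMIs). These levels are below the 10 CPM needed here for a gene to be compared between libraries, and no change of Il1a could be read at this depth. Il18 was detected on every day, with 26.7, 39.5, 32.7 and 39.8 CPM at days 0, 1, 2 and 5. At day 5 it was 1.49-fold its day 0 level (1.22 to 1.84), short of the 2-fold used as the call.

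Both brakes on interleukin-1 were higher at day 5 as well. Il1rn, the antagonist gene, was at 11.5 CPM at day 0 (50 UMIs), 7.18 CPM at day 1 (132 UMIs), 7.90 CPM at day 2 (96 UMIs) and 67.8 CPM at day 5 (1010 UMIs). Its day 5 level was 5.89-fold that of day 0 (4.44 to 7.99), and the interval lies below that of Il1b. Il1r2, the decoy receptor gene, was at 4.60 CPM at day 0 (20 UMIs), 3.05 CPM at day 1 (56 UMIs), 3.45 CPM at day 2 (42 UMIs) and 56.2 CPM at day 5 (837 UMIs). Its day 5 level was 12.2-fold that of day 0 (7.85 to 20.1), with an interval that holds the value of Il1b, but 4.91-fold (1.67 to 23.8) with at least 1000 genes per barcode, a rule that leaves 96 barcodes at day 0.

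Nlrp3, which encodes the inflammasome sensor, was at 12.9, 7.08, 12.8 and 32.1 CPM at days 0, 1, 2 and 5. Its day 5 level was 2.50-fold that of day 0 (1.89 to 3.35), with 56 and 479 UMIs behind the values. With at least 1000 genes per barcode the ratio was 1.61, under the call. The day 5 ratio of Nlrp3 was thus the smallest of the 4 members called higher.

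**Figure D1:**
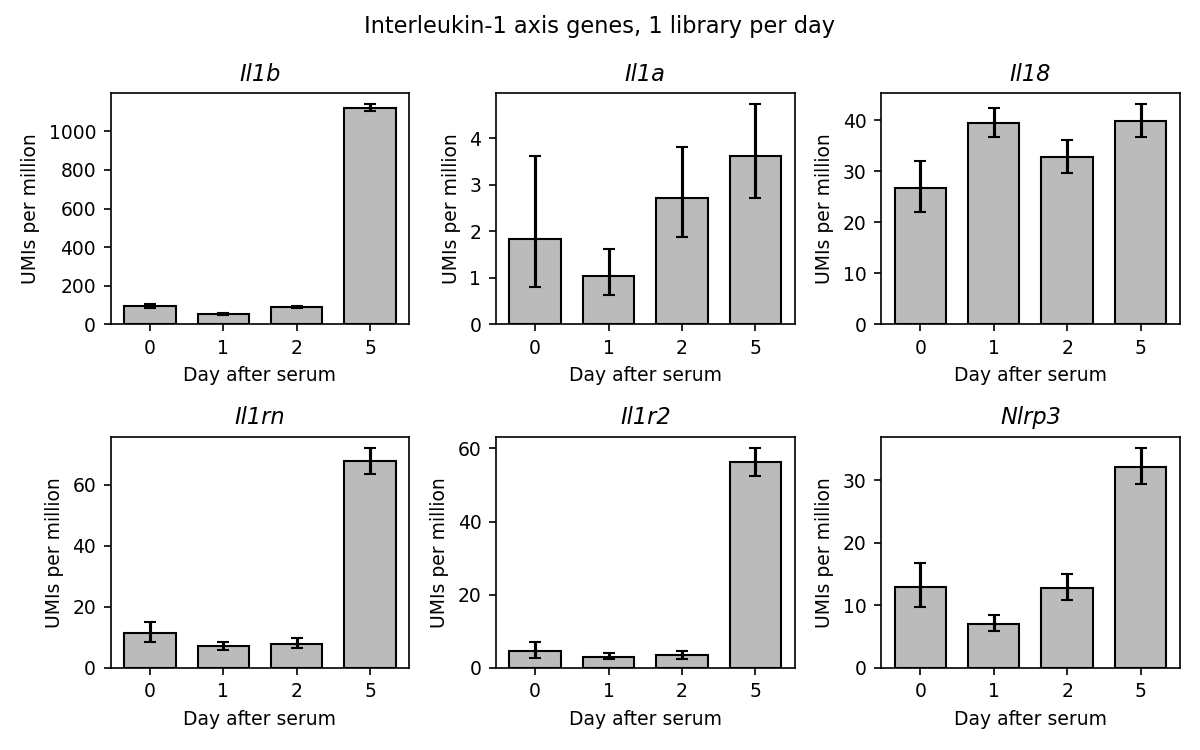
Level of each of the 6 genes in CPM (vertical axes, linear, different scales) in the library of each day after serum (horizontal axes). Bars are the library's value and whiskers its 95% counting interval. Il1b, Il1rn, Il1r2 and Nlrp3 were at 1122, 67.8, 56.2 and 32.1 CPM at day 5, above each of the earlier libraries.

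Of the 5 members measured in the comparison of day 5 with day 0, 4 were at least 2-fold higher and 0 at least 2-fold lower. Over all 7419 genes measured in that comparison, 6.43% were at least 2-fold higher and 3.34% at least 2-fold lower. The median log2 ratio was 2.56 over the members and 0.11 over all genes. Against day 2, the same 4 of 5 were higher, against 4.11% of genes higher and 1.07% lower. None of the 4 members measured at days 1 and 2 was 2-fold from day 0 in either direction, against 2.57% of genes higher and 2.41% lower at day 1, and 2.77% higher and 2.98% lower at day 2. With at least 1000 genes per barcode, Il1rn was at 0.381 and Nlrp3 at 0.357 of day 0 at day 1, and Il1rn at 0.350 at day 2, all past 2-fold. The comparisons with day 0 share that library.

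The day 1 library held the lowest Il1b level, and there few cells carried most of it. At day 1 Il1b was 0.569 of its day 0 level (0.507 to 0.640), Il1rn 0.625 (0.448 to 0.883) and Nlrp3 0.549 (0.399 to 0.766), while Il18 was 1.48 (1.22 to 1.82). In that library 21 of 4642 barcodes held 50% of the Il1b UMIs, and the 46 barcodes with the most held 72.4%. The same 50% was spread over 82 barcodes at day 0, 31 at day 2 and 143 at day 5. These counts were not matched for depth, and the median barcode had 1057 UMIs at day 0 and 3607.5 at day 1. Without the 10 barcodes richest in Il1b, the day 1 level was 36.3 CPM and its ratio to day 0 was 0.439.

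Other genes of the pathway moved less than the members. A list of 47 ligands, receptors, brakes, inflammasome parts and signalling genes had 41 listed at both days 0 and 5 and 27 measured. At day 5, 4 of the 27 were at least 2-fold higher than at day 0, and 0 were at least 2-fold lower. Over all measured genes 6.43% were higher and 3.34% lower. Their median log2 ratio was 0.41, against 0.11 over all genes.

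Gsdmd, which encodes the pore-forming protein through which interleukin-1 beta leaves the cell, was at 27.1 CPM at day 0 (118 UMIs) and 61.7 CPM at day 5 (920 UMIs), 2.27-fold (1.88 to 2.78). Mefv, which encodes the inflammasome sensor pyrin, was at 1.15 CPM on 5 UMIs and at 27.3 CPM, 23.7-fold (10.1 to 73.5). Myd88, the adaptor of the interleukin-1 receptor, was 2.15-fold higher (1.73 to 2.68). Nfkb2, an NF-kB subunit gene, was 2.28-fold higher (1.81 to 2.91). Casp1, the gene of the cutting protease, was at 51.1 and 74.4 CPM, 1.46-fold (1.26 to 1.69) and under the call. None of the 6 receptor genes of the list reached 10 CPM at day 0 or 5, so the receiving side of the axis could not be compared at this depth. Il1rap, the accessory receptor gene, came nearest, with 5 UMIs at day 0 and 9.93 CPM at day 5 (148 UMIs), and Il1r1 had 7 and 31 UMIs. Of the 5 further ligand genes, such as Il33, none was listed at both days.

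At day 1, 2 of 27 measured pathway genes were at least 2-fold lower than at day 0 and 1 was higher. Over all measured genes 2.41% were lower and 2.57% higher, so the 1 higher gene is near the general share. The lower ones were Nfkbia, which encodes an NF-kB inhibitor, at 0.494 of day 0 (0.473 to 0.517), and Tnfaip3, which encodes the NF-kB brake A20, at 0.470 (0.408 to 0.543). The higher one was Il1rl1, the interleukin-33 receptor gene, at 4.83 and 11.4 CPM, 2.35-fold (1.501 to 3.89). At day 2, 0 of 26 were 2-fold from day 0, against 2.77% of all measured genes higher and 2.98% lower. Against day 2, the day 5 library had 2 of 27 higher, beside 4.11% of all measured genes. They were Mefv at 13.3-fold (8.87 to 20.8) and Nfkbia at 2.02-fold (1.97 to 2.08).

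The marker groups were compared with companion genes that played no part in forming them. The companion lists were chosen with earlier results of these data known, so the comparison is a description. Among day 5 barcodes with 1 of the 5 markers only, the summed level of 5 lining companions such as Vsig4 and Trem2 was 7370 CPM in the Sparc group and from 279 to 1961 CPM in the other four. Companions of interstitial macrophages such as Mrc1 and Lyve1 summed to 6631 CPM in the Cd163 group and to 4921 CPM in the Sparc group. MHC class II companions summed to 43160 CPM in the H2-Aa group. Monocyte companions such as Ly6c2 and Chil3 summed to 4050 CPM in the Plac8 group, against 572 CPM in the Spp1 group and 874 CPM in the whole library. Companions of Spp1 macrophages such as Arg1 and Fn1 summed to 2163 CPM in the Spp1 group and to 1712 CPM in the Plac8 group. The Cd163 and Sparc groups were thus close by the interstitial list, and the Plac8 and Spp1 groups by the list of Spp1 companions. In the overlapping groups, Thbs1 and Slc7a11 of that list were higher in Plac8+ than in Spp1+ barcodes (656 against 227 CPM, and 182 against 110 CPM). Arg1, Fn1 and Gpnmb were lower in Plac8+ than in Spp1+ barcodes, and Fn1 was highest in Sparc+ barcodes (1116 CPM).

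At day 0 the groups were hardly separate. The lining companions summed to 4723 CPM in Sparc+ barcodes and 4143 CPM in the whole day 0 library, which was also the shallowest, with 1057 UMIs in its median barcode and between 3607.5 and 4183.5 in those of the later libraries. Of the retained barcodes, 46.3%, 38.7%, 44.3% and 52.2% at days 0, 1, 2 and 5 were positive for at least 2 of the markers. Groups with only 1 marker are therefore given beside the overlapping ones.

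At day 5 Plac8+ barcodes had the highest Il1b level of the 5 overlapping groups and the largest share of its UMIs. Its level was 293 CPM in Sparc+ (1306 UMIs), 348 CPM in Cd163+ (1233 UMIs), 1295 CPM in H2-Aa+ (10270 UMIs), 3055 CPM in Plac8+ (11533 UMIs) and 1090 CPM in Spp1+ barcodes (6442 UMIs). The Plac8+ level was above all others, and the intervals of the 5 groups did not overlap. The 826 Plac8+ barcodes, 25.5% of the library, held 69.0% of all Il1b UMIs (68.2% to 69.7%). Il1b was found in 78.6% of them, and in 49.8% when thinned to 500 UMIs. The 1557 H2-Aa+ barcodes, which overlap the Plac8+ ones, held 61.4% of the Il1b UMIs. Plac8-only barcodes held 17.9%.

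Il1rn at day 5 had another order. Its level was 23.8 CPM in Sparc+ (106 UMIs), 32.7 CPM in Cd163+ (116 UMIs), 66.0 CPM in H2-Aa+ (523 UMIs), 112 CPM in Plac8+ (424 UMIs) and 114 CPM in Spp1+ barcodes (672 UMIs). Plac8+ and Spp1+ barcodes did not differ beyond counting error in the antagonist, though they differed 2.80-fold in the agonist. The 1098 Spp1+ barcodes, 33.9% of the library, held 66.5% of the Il1rn UMIs (63.5% to 69.4%) and 38.5% of the Il1b UMIs. Shares add to more than 100% because the groups overlap.

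**Figure D2:**
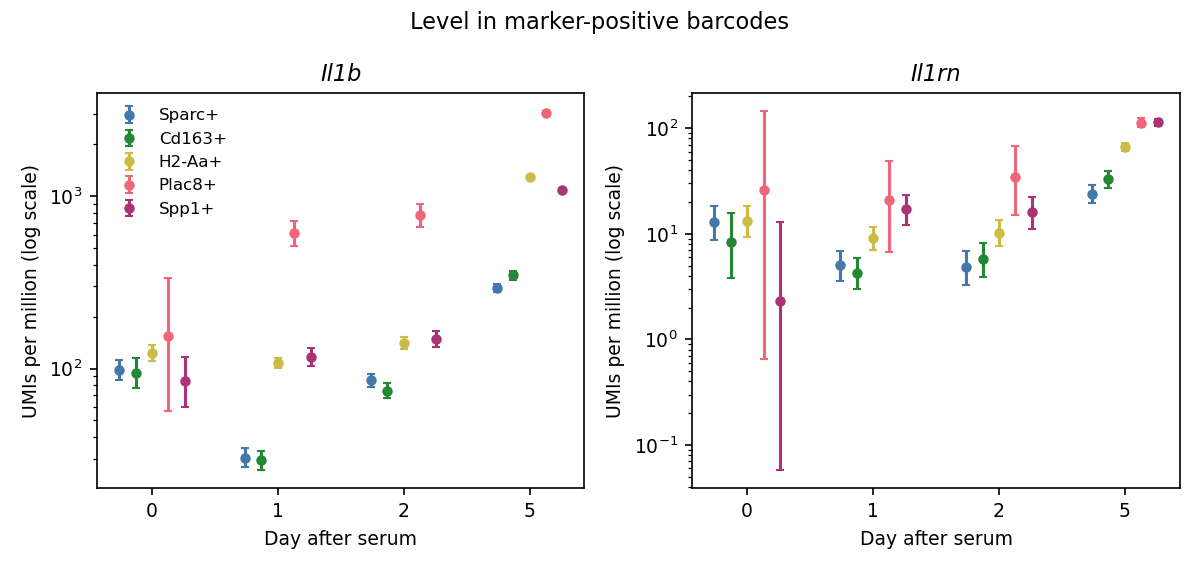
Level of Il1b (left) and Il1rn (right) in CPM, on log axes, in barcodes positive for each of the 5 markers at each day after serum. Points are sums over 1 library and whiskers 95% counting intervals. Plac8+ barcodes had the highest Il1b at days 1, 2 and 5 (612, 776 and 3055 CPM), while Plac8+ and Spp1+ barcodes had like Il1rn at day 5 (112 and 114 CPM).

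The number of Il1b UMIs for each Il1rn UMI puts the agonist against its antagonist. Both are 3′ counts and the capture of each gene is not known, so the number was compared between groups and days and not read as a ratio of molecules. Over whole libraries it was 8.26 (6.15 to 11.3), 7.52 (6.27 to 9.09), 11.5 (9.30 to 14.3) and 16.6 (15.5 to 17.7) on days 0, 1, 2 and 5. The day 5 library was the highest, and its interval did not overlap those of the earlier days.

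Within day 5 the value ranged from 9.59 in Spp1+ barcodes (8.85 to 10.4) to 27.2 in Plac8+ barcodes (24.7 to 30.0). It was 10.6 in Cd163+ (8.78 to 12.97), 12.3 in Sparc+ (10.1 to 15.2) and 19.6 in H2-Aa+ barcodes (18.0 to 21.5). Spp1+, Cd163+ and Sparc+ barcodes lay near each other, and H2-Aa+ and Plac8+ barcodes each stood above them. Plac8+ exceeded Spp1+ barcodes 2.84-fold.

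The contrast was wider among barcodes with only 1 marker. Day 5 barcodes with Plac8 only had 39.96 Il1b UMIs for each Il1rn UMI (31.8 to 50.9) and those with Spp1 only had 5.06 (4.33 to 5.94), 7.89-fold apart. Both genes contributed. Il1b was at 3573 CPM in the 220 Plac8-only barcodes and 1147 CPM in the 198 Spp1-only barcodes, 3.12-fold higher with Plac8 (2.90 to 3.35). Il1rn was at 89.4 CPM (75 UMIs) and 227 CPM (191 UMIs), 2.53-fold higher with Spp1 (1.93 to 3.35). Spp1-only barcodes were 6.12% of the library and held 18.9% of its Il1rn UMIs (16.5% to 21.5%).

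**Figure D3:**
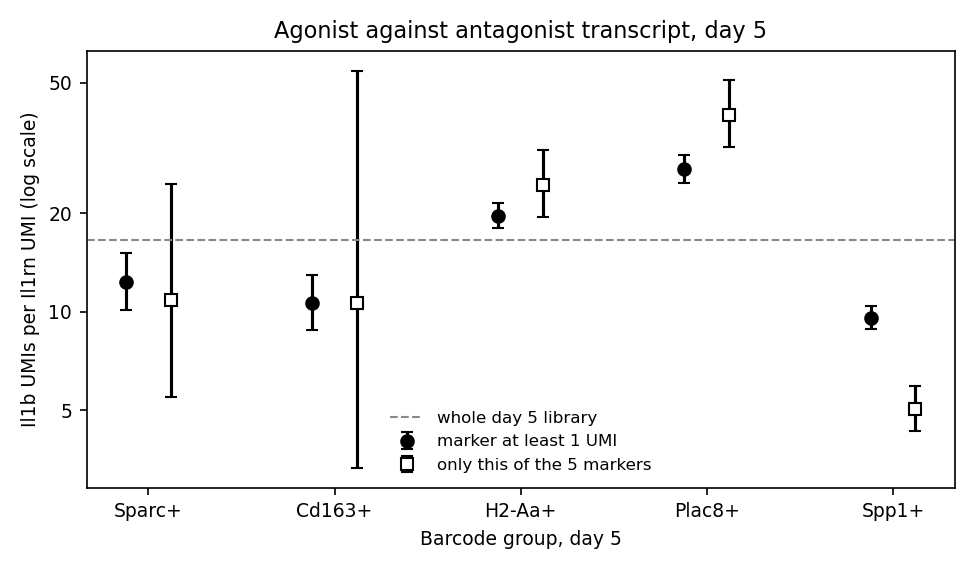
Il1b UMIs for each Il1rn UMI (log axis) at day 5 in barcodes positive for each marker (filled) and in those positive for only that marker of the 5 (open), with 95% counting intervals. The dashed line is the whole day 5 library at 16.6. Plac8-only barcodes lie at 39.96 and Spp1-only barcodes at 5.06.

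Barcodes with several markers spread more widely than those with only 1. Day 5 barcodes with H2-Aa and Plac8 had 38.1 Il1b UMIs for each Il1rn UMI (31.3 to 46.9), near those with Plac8 only. Barcodes with H2-Aa and Spp1 had 6.96 (5.92 to 8.23), near those with Spp1 only. With both Plac8 and Spp1 the value was 13.6 (11.1 to 16.8), and with all 3 of H2-Aa, Plac8 and Spp1 it was 22.6 (18.1 to 28.7). The other combinations of at least 100 barcodes, a size set after the values were seen, were Cd163 with H2-Aa at 20.8 (10.7 to 46.2), Sparc with Spp1 at 3.29 (1.77 to 6.47) and Sparc with Cd163 at 2.88 (1.24 to 7.43), the last 2 on few UMIs. Smaller combinations ran from 0.429 to 108. The 109 barcodes with Plac8 and Spp1 and no other marker had both transcripts high, with Il1b at 2790 CPM and Il1rn at 205 CPM.

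The amount of each marker was also followed within day 5, in bins set after the data were seen. Il1b was at 467 CPM in barcodes with no Plac8 UMI, 2085 CPM with 1 UMI, 3427 CPM with 2 to 3, 4224 CPM with 4 to 7, 3254 CPM with 8 to 15 and 2538 CPM with 16 or more. It was therefore highest at an intermediate Plac8 count and not at the top. Il1rn was at 52.7 CPM with no Plac8 UMI, between 80.6 and 124 CPM in 4 of the other bins and at 163 CPM in the bin of 4 to 7, where Il1b was also highest. Il1rn was at 37.6 CPM with no Spp1 UMI, from 47.4 to 54.5 CPM with 1 to 7, 109 CPM with 8 to 15 and 404 CPM with 16 or more. The 196 barcodes richest in Spp1 thus held 395 of the 1010 Il1rn UMIs, with 3.67 Il1b UMIs for each Il1rn UMI (3.28 to 4.11) against 30.4 (27.3 to 34.0) in barcodes with none. Il1b itself varied less with Spp1, between 868 and 1483 CPM.

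**Figure D4:**
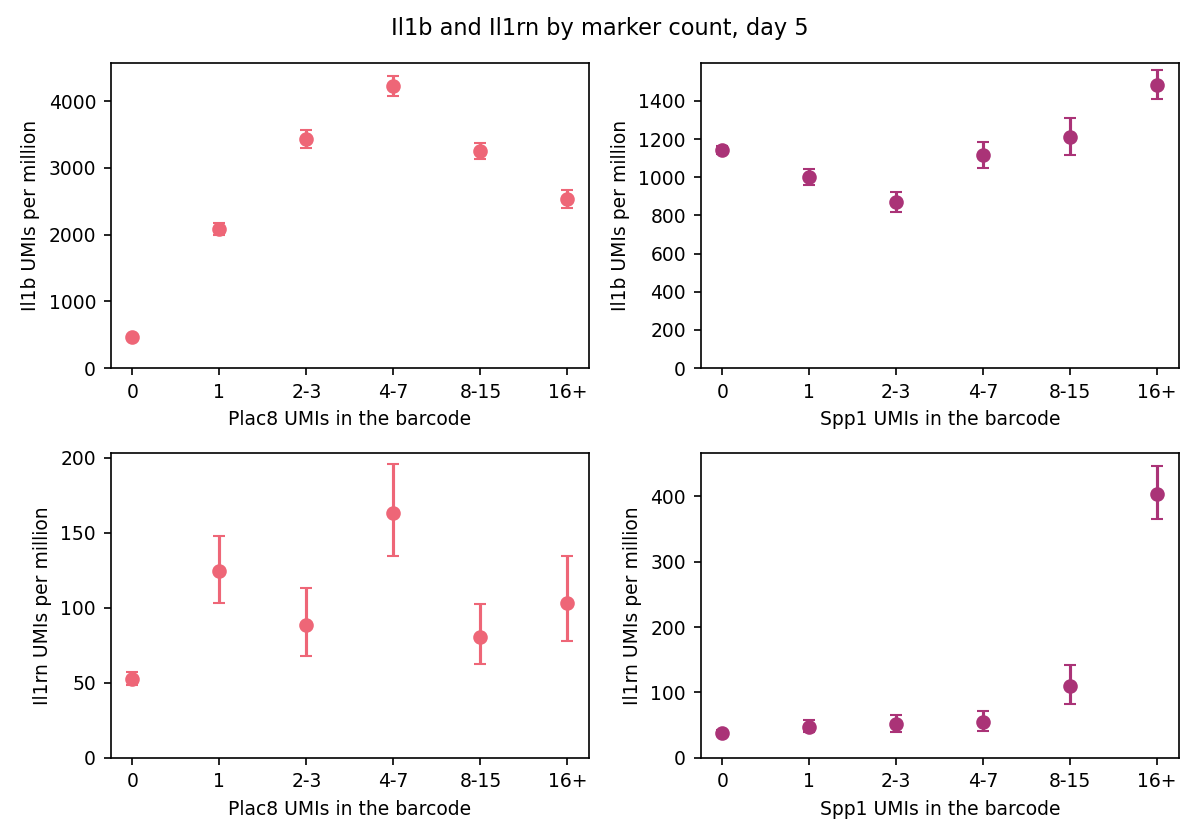
Il1b (upper) and Il1rn (lower) in CPM at day 5 by the number of Plac8 (left) or Spp1 (right) UMIs in a barcode, with 95% counting intervals. Il1b reached 4224 CPM at 4 to 7 Plac8 UMIs, and Il1rn reached 404 CPM at 16 or more Spp1 UMIs.

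At day 5 most barcodes with the antagonist also had the agonist, but most with the agonist lacked the antagonist. Doublets were not removed. Both transcripts were found in 309 barcodes, Il1b alone in 937, Il1rn alone in 173 and neither in 1816. Il1b was thus present in 64.1% of the barcodes with Il1rn, against 38.5% of all. Il1rn was present in 24.8% of the barcodes with Il1b, against 14.9% of all. Of the Plac8-only barcodes with Il1rn, 43 of 47 (91.5%) also had Il1b, against 37 of 72 (51.4%) of the Spp1-only ones, at medians of 3650 and 3529 UMIs per barcode in the 2 groups. With or without Il1rn, 77.3% of Plac8-only and 36.9% of Spp1-only barcodes had Il1b. Before day 5 both were found in 6, 13 and 19 barcodes at days 0, 1 and 2.

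The resident-type groups had little Il1b once barcodes with other markers were left out. At day 5 the level was 74.4 CPM in Sparc-only barcodes (98 UMIs) and 44.96 CPM in Cd163-only barcodes (32 UMIs), against 1186 CPM in H2-Aa-only barcodes (1881 UMIs). The Sparc-only level was 1.26-fold that of day 0 (0.856 to 1.90) and the Cd163-only level 1.89-fold (0.591 to 9.63), neither beyond counting error. Days 1 and 2 were lower, at 9.25 CPM (6.10 to 13.5) and 49.5 CPM (40.8 to 59.6) in Sparc-only barcodes, and at 2.24 CPM (0.820 to 4.87) and 18.2 CPM (11.9 to 26.6) in Cd163-only barcodes. Against day 2 the day 5 level was 1.502-fold (1.13 to 1.99) and 2.48-fold (1.43 to 4.33). The H2-Aa-only level was 9.53-fold that of day 0 (7.88 to 11.6). Single-marker groups were less separate at day 0, so the ratios to day 0 may not compare like cells. Lining companions at day 0 summed to 5430 CPM in Sparc-only, 3366 CPM in Cd163-only and 3346 CPM in H2-Aa-only barcodes. At day 5 these sums were 7370, 1857 and 1183 CPM. Il1rn was low in the same groups, with 6.83 CPM in Sparc-only barcodes (9 UMIs), 4.21 CPM in Cd163-only barcodes (3 UMIs), and stood at 48.5 CPM in H2-Aa-only barcodes (77 UMIs).

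Free RNA in droplets can give a few UMIs in cells that do not make a gene, so levels in other cell types were set beside these. At day 5, 98 barcodes with at least 10 UMIs of osteoclast genes had 37.4 CPM of Il1b (28.0 to 49.1), found in 37.8% of them at a median of 13902.5 UMIs and in 2.04% when thinned. The 11 barcodes with at least 10 UMIs of fibroblast genes had an Il1b UMI in 0 of 11, where 3 counts would be a share of 27.3% of barcodes with a UMI, at a median of 3113 UMIs. The Cd163-only level of 44.96 CPM (30.7 to 63.5) does not differ from the osteoclast level beyond counting error, and the Sparc-only level of 74.4 CPM (60.4 to 90.7) was above it. At 500 UMIs per barcode, however, Il1b was found in 2.23% of Sparc-only and 3.94% of Cd163-only barcodes, near the 2.04% of osteoclast-list barcodes and far from the 49.5% of Plac8-only and 19.7% of Spp1-only barcodes. The most Il1b UMIs in 1 barcode were 18 among Sparc-only and 2 among Cd163-only barcodes. Without thinning, Il1b was found in 15.3% of Sparc-only barcodes (median 4031 UMIs) and 13.3% of Cd163-only barcodes (median 3278 UMIs). Both shares were below the 37.8% of the deeper osteoclast-list barcodes. Equal free RNA per droplet would give lower CPM and thinned shares in deeper barcodes, so these comparisons do not measure free RNA. Osteoclast-list barcodes are also not shown to lack Il1b of their own. Whether the Il1b of Sparc-only and Cd163-only barcodes is their own or free RNA was not tested.

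At days 1 and 2 the Plac8+ barcodes were few but already high in Il1b. There were 32, 59 and 52 of them at days 0, 1 and 2, with 155 CPM (6 UMIs, 57.0 to 338), 612 CPM (147 UMIs) and 776 CPM (179 UMIs) of Il1b. The day 0 interval holds the library's level. The day 5 level was 3.94-fold that of day 2 (3.40 to 4.59) and their number was 826. At day 1 they were 1.27% of barcodes and held 14.8% of the Il1b UMIs. Without the 10 barcodes richest in Il1b the day 1 level was 296 CPM, so those few barcodes carried much of it. Monocyte companions summed to 1636 and 3063 CPM in the Plac8+ barcodes of days 1 and 2, against 166 and 168 CPM in the whole libraries.

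H2-Aa+ barcodes held 81.1% of the Il1b UMIs at day 0 (60.7% of barcodes), 78.5% at day 1 (36.4% of barcodes) and 61.3% at day 2 (37.5% of barcodes). Sparc+ barcodes, which overlap them, held 54.96%, 24.97% and 50.05%. H2-Aa-only barcodes held 27.4%, 32.2% and 11.6%, and Sparc-only barcodes 8.96%, 2.72% and 10.2%. The Il1b level of H2-Aa+ barcodes was 123, 108, 141 and 1295 CPM at days 0, 1, 2 and 5. In Sparc+ barcodes the levels were 97.8, 30.3, 85.5 and 293 CPM, and in Cd163+ barcodes 94.6, 29.3, 74.4 and 348 CPM. Sparc+ and Cd163+ barcodes had close levels on each day and both were lowest at day 1, at 0.310 of day 0 (0.258 to 0.373, and 0.245 to 0.394). For H2-Aa the direction turned with the definition. Day 1 was at 0.873 of day 0 in H2-Aa+ barcodes (0.767 to 0.995). It was 1.53-fold in H2-Aa-only barcodes (1.23 to 1.91), whose levels were 124 and 190.1 CPM. In the H2-Aa-only group, 1 barcode held 62 of the 320 day 1 UMIs. The share of these barcodes with Il1b was 9.98% at day 0 and 8.10% at day 1, and 5.05% and 2.83% when thinned.

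Spp1+ barcodes differed between days in osteoclast genes as well. At days 1 and 2 they had 117 and 149 CPM of Il1b and 17.0 and 15.9 CPM of Il1rn, and at day 0 84.98 CPM of Il1b and a lone Il1rn UMI. Osteoclast genes (Acp5, Ctsk, Mmp9, Ocstamp) summed to 2260, 938, 962 and 2336 CPM in Spp1+ barcodes at days 0, 1, 2 and 5, and to 927, 231, 304 and 1128 CPM in the libraries. Among Spp1-only barcodes they summed to 6787 CPM at day 0 and 989 CPM at day 5. Without osteoclast-list barcodes, the day 5 Spp1+ levels were 1310 CPM of Il1b and 133 CPM of Il1rn, and the number of Il1b UMIs for each Il1rn UMI was 9.86.

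The decoy receptor gene Il1r2 was highest in H2-Aa+ and Plac8+ barcodes. At day 5 its level was 15.1 CPM in Sparc+ (67 UMIs), 14.9 CPM in Cd163+ (53 UMIs), 87.1 CPM in H2-Aa+ (691 UMIs), 118 CPM in Plac8+ (444 UMIs) and 44.99 CPM in Spp1+ barcodes (266 UMIs). H2-Aa+ barcodes held 82.6% of its UMIs (79.8% to 85.1%). With only 1 marker, Il1r2 was at 148 CPM in H2-Aa barcodes, 66.8 CPM in Plac8 barcodes and 9.49 CPM in Spp1 barcodes. The H2-Aa-only level was 2.21-fold that of Plac8-only (1.64 to 3.01) and 15.5-fold that of Spp1-only barcodes (7.76 to 36.4). Among single-marker groups Il1rn was thus highest in Spp1-only and Il1r2 in H2-Aa-only barcodes. Barcodes with both H2-Aa and Plac8 had still more Il1r2, 193 CPM, beside 95.6 CPM of Il1rn, and held 24.6% of the Il1r2 UMIs and 23.3% of the Il1b UMIs. Barcodes with both Plac8 and Spp1 had 107 CPM of Il1r2.

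Among the single-marker groups of day 5, dendritic cell genes were highest in H2-Aa-only barcodes, as Il1r2 was. The 60 day 5 barcodes with at least 10 UMIs of a list of 6 dendritic cell genes, 4 of them listed, had 365 CPM of Il1r2 (302 to 437), 1632 CPM of Il1b and 31.2 CPM of Il1rn. That list summed to 409 CPM in H2-Aa-only barcodes, against 120 CPM in the library and at most 29.5 CPM in the other single-marker groups. The other groups did not keep the same order, since Plac8-only barcodes had 66.8 CPM of Il1r2 and 9.54 CPM of the list. Cd163-only barcodes had 1.40 CPM of Il1r2 and 29.5 CPM of the list. Of the 6 genes of the list, Xcr1 and Clec9a were not listed at day 5. The part of dendritic cells in the H2-Aa level was not tested.

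The inflammasome sensor gene and Il18 were highest with Plac8. Nlrp3 was at 71.5 CPM in Plac8-only (60 UMIs), 53.4 CPM in Spp1-only (45 UMIs), 20.2 CPM in H2-Aa-only (32 UMIs), 5.32 CPM in Sparc-only (7 UMIs) and 4.21 CPM in Cd163-only barcodes (3 UMIs). Plac8-only and Spp1-only barcodes did not differ beyond counting error, at 1.34-fold (0.896 to 2.02). Il18 was at 88.2 CPM in Plac8-only barcodes (74 UMIs), 3.38-fold the 26.1 CPM of Spp1-only barcodes (2.08 to 5.72), and between 23.3 and 33.7 CPM in the other three. Il1a had 10 UMIs in Plac8-only barcodes and 6 in each of the H2-Aa-only and Spp1-only groups.

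**Figure D5:**
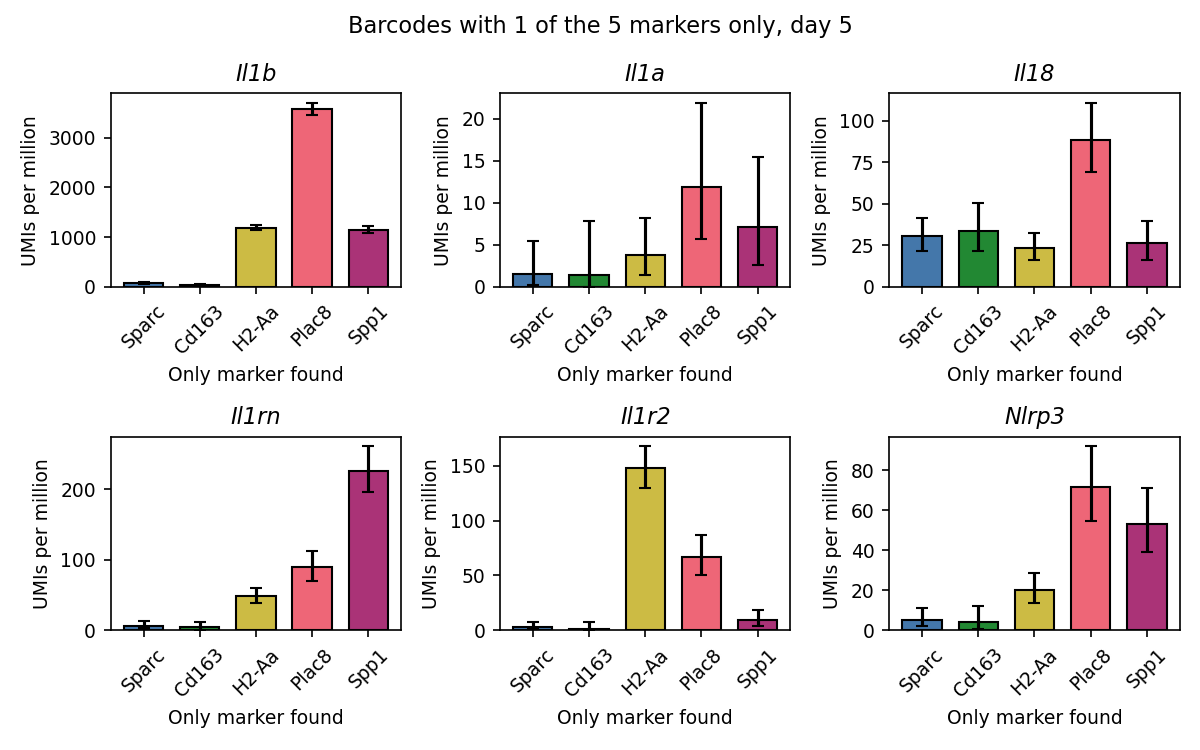
Level of the 6 genes in CPM (vertical axes, linear, different scales) in day 5 barcodes with 1 of the 5 markers only (horizontal axes). Bars are sums over each group and whiskers 95% counting intervals. Il1b and Il18 were highest in Plac8-only barcodes (3573 and 88.2 CPM), Il1rn in Spp1-only (227 CPM) and Il1r2 in H2-Aa-only barcodes (148 CPM).

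Other signals moved with Plac8. Of 12 neutrophil genes 6 were listed at day 5, and Ly6g, Retnlg, Camp, Ngp, Ltf and Stfa1 were listed in none of the libraries. Those listed summed to 123 CPM in Plac8+ barcodes, 219 CPM in Plac8-only barcodes, 91.3 CPM in Spp1-only barcodes and 50.4 CPM in the day 5 library. In the earlier libraries 3 or 4 of the 12 were listed, so their sums of 12.2 to 21.2 CPM cover fewer genes. Without the 50 day 5 barcodes that held at least 3 neutrophil UMIs, Il1b in Plac8+ barcodes was at 3083 CPM and Il1rn at 115 CPM, as large as with them. The 10 immediate early genes such as Fos and Jun, which tissue dissociation can raise, summed to 9865 CPM in Plac8+ and 6195 CPM in Spp1+ barcodes of day 5, and to 6483 CPM in the library. Their part in the Il1b level was not tested. Other lists were spread unevenly as well: fibroblast genes summed to 382 CPM in Sparc-only barcodes against 101 CPM in the library, T or NK cell genes to 111 CPM in H2-Aa-only barcodes against 31.9 CPM, and haemoglobin genes to 2544 CPM in Spp1-only barcodes, where 1 barcode of the library had at least 10 of their UMIs.

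Over the 20 groups made by 5 markers and 4 days, Il1b and Il1rn followed each other, with a Pearson correlation of 0.92 and a Spearman correlation of 0.95 of log2 of CPM with 5 added. The groups share libraries, depth and barcodes, so this is a description. Among 4077 genes with at least 50 CPM in 1 group, those most like Il1b were Osm (0.95), the oncostatin M cytokine gene, then F10, Fosl2, Slfn2, Thbs1, Slc7a11, Atp5d and Cycs (0.92). Those most like Il1rn included Cycs (0.96), the cytochrome c gene, Pgk1, Mrpl52, Malt1, Dmkn, Ifrd1 and Ptgs2 (0.90). Cycs was the gene named for both, and F10, Thbs1 and Slc7a11 were also among the companion genes of the Plac8 or Spp1 groups. By the Spearman correlation, 3 of the 8 genes most like Il1b and 4 of the 8 most like Il1rn were also among the first 8.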

How the data were processed

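The deposited files hold counts, UMIs per gene and barcode from 1 library per day (10x Chromium, 3′ v2 chemistry, 17400 cells loaded), per the labels' protocols. Their values are whole numbers that the authors did not normalize. Cell Ranger 2.1.0, Seurat 2.3, R 3.5.2 and mm10 are named, per the submitters' processing notes, without which step each made. A gene appears in a deposited table when 5 or more barcodes hold it, and genes not listed were left without a value.

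The libraries held 7542, 4674, 2756 and 3265 barcodes at days 0, 1, 2 and 5. Those with 500 or more genes whose mitochondrial share was below 10% were kept, leaving 3715, 4642, 2722 and 3235 with 4347517, 18373038, 12159063 and 14901661 UMIs. At day 0, 3760 barcodes (49.9%) had fewer genes. Of 18081 barcode sequences, 156 occurred in more than 1 library. Doublets were not removed. UMIs were summed per library or group. CPM carry exact Poisson intervals, shares Clopper-Pearson intervals and ratios exact conditional intervals at 95%, with 3 in place of any 0 in a ratio and as the limit of a share at 0. A gene was compared between libraries when both list it and either reached 10 CPM, with 2-fold as the call. Thinning drew 500 UMIs from each barcode, and no retained barcode had fewer.

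The genes, marker groups and lists were chosen with earlier results of these data known. The pathway genes named had at least 20 CPM and a 2-fold ratio, and Il1rl1, Casp1, Il1r1 and Il1rap were named beside them after their values were seen. The minimum of 10 UMIs for other cell types, the marker bins and the comparison with day 2 were also set then. Gene positions are from GENCODE on GRCm38 and promoters from RefSeq on GRCm38.p6. All 6 genes had a promoter there. The ratio step was tested on simulated counts. The software was Python 3.11.15 with SciPy 1.17.1 for intervals, NumPy 2.4.6 and pandas 2.3.3 for sums and matplotlib 3.10.9 for plots. Alternatives were other gene, mitochondrial and marker minimums, single-marker groups, the mean of each barcode's CPM, median-ratio scaling, no thinning, and leaving out barcodes that were shared or held neutrophil genes. Leaving out barcodes over 3 times the median UMIs, those with osteoclast genes and the 10 richest in Il1b, and marking on thinned counts, were added after the data were seen. Of the 8 genes most like Il1rn, 1 is not reported here.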

Additional observations from a re-analysis of the deposited data

Results flagged for a closer look

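Between days 0 and 1 the Il1b level moved in opposite directions in different marker groups, with counting intervals that excluded 1 on either side. The ratio was 0.310 in Sparc+, 0.310 in Cd163+ and 0.873 in H2-Aa+ barcodes, and 3.94 in Plac8+ barcodes, which rested on 6 day 0 UMIs. In H2-Aa-only barcodes the direction was the opposite, at 1.53, where 1 barcode held 62 of the 320 day 1 UMIs. Between days 0 and 2 it was 0.787 in Cd163+ barcodes, against 1.14 in H2-Aa+, 1.76 in Spp1+ and 5.00 in Plac8+ barcodes. For Il1rn the ratio at day 1 was 0.388 in Sparc+ and 7.42 in Spp1+ barcodes, and at day 2 it was 0.372 and 6.94. The Spp1+ values rest on a lone Il1rn UMI at day 0. These differences between groups were not tested, since each day has 1 library.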

How the results depend on the processing

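No paired analysis was possible because each day has 1 library. Of 2135 values under alternatives, 1651 stayed within the counting interval or count range of the reported value and 484 moved. A reversal could be called only for a ratio of a member between libraries that was at least 2-fold in either direction, and 0 reversed. Levels, shares and Il1b UMIs for each Il1rn UMI could not be called reversed. Plac8+ exceeded Spp1+ barcodes in Il1b UMIs for each Il1rn UMI at day 5 under 12 of 12 settings, by 2.76-fold to 7.89-fold.

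Marker minimums moved the day 5 Il1b UMIs for each Il1rn UMI. With at least 2 UMIs it was 10 in Sparc+, 7.29 in Cd163+, 31.6 in Plac8+ and 7.36 in Spp1+ barcodes. With at least 3 it was 9.44, 5.40, 32.1 and 6.73, with 23.7 in H2-Aa+. With only 1 marker it was 24.4 in H2-Aa, 39.96 in Plac8 and 5.06 in Spp1 barcodes. With markers counted in 500 UMIs it was 23.2, 34.1 and 5.36. Narrower groups hold less of a gene by construction. Plac8+ barcodes held 56.4%, 49.4% and 17.9% of day 5 Il1b with at least 2 UMIs, at least 3 UMIs and only 1 marker, and 68.2% without neutrophil-list barcodes. Spp1+ barcodes held 55.7%, 53.3% and 18.9% of Il1rn.

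At least 1000 genes left 96 barcodes at day 0. The ratios to day 0 were then 13.2 for Il1b at day 5, and 0.381, 0.350 and 3.47 for Il1rn at days 1, 2 and 5. Nlrp3 was at 0.357 at day 1 and 1.61 at day 5, and Il1r2 at 4.91 at day 5. Without the 10 barcodes richest in Il1b its ratios were 0.439 at day 1 and 0.816 at day 2. Median-ratio scaling shifted all log2 ratios to day 0 by -0.17, -0.14 and -0.10 at days 1, 2 and 5. Il1b at day 1 was then at 0.505, just short of the call, and Nlrp3 at 0.488, past it. The causes were not tested.

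Depth limits day 0, with 50 Il1rn and 20 Il1r2 UMIs, and Il1a on every day. Spread between mice is unknown.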
